A study of Arabidopsis thaliana with 8 samples.

Results

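The TBL, GH9 and BGLU genes are 3 Arabidopsis families whose proteins decorate or cut sugar polymers and glucosides, and they were followed here in lower inflorescence stems of the line SND2-OV(A) and the wild type. Members were taken by gene symbol from the annotation of the array, as TBL with a number, GH9 with a letter or BGLU with a number. This gave 33 genes of 7234 annotated genes, with 14 TBL, 8 GH9 and 11 BGLU genes. RefSeq symbols list 41 TBL, 21 GH9 and 40 BGLU genes in the genome, so that most of each family had no annotated probe and was not analysed here.

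SND2-OV(A) is 1 homozygous line in the Col-0 background that carries the coding sequence of the NAC transcription factor SND2 in the overexpression vector pMDC32, which drives it from a constitutive promoter, and it was picked from several lines because its CesA8 transcript was raised. The control was untransformed Col-0 of the same age. Stems were sampled at 4 weeks and at 8 weeks in separate experiments, and each of the 3 biological replicates per age was a pool of plants. Line and wild type RNA shared a 2-colour array. At each age replicate 1 was hybridized on 2 arrays with the dyes exchanged, replicate 2 had the line in Cy3 and replicate 3 had the line in Cy5, so that there were 4 arrays per age and 8 in all. The labels place the transgenic plants of both ages on hygromycin. The methods give that selection for the 8-week plants and none for the 4-week plants, so age and selection cannot be told apart. The control was untransformed, so where the line was selected, line and selection cannot be told apart in the ratios either.

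Many polymers of the wall carry acetyl esters, and TBL proteins (TRICHOME BIREFRINGENCE-LIKE) are plant-specific O-acetyltransferases that add them to xylan, mannan, xyloglucan or pectin in the Golgi. GH9 proteins are endo-beta-1,4-glucanases, in which class A is anchored in the membrane and includes KORRIGAN of cellulose synthesis, class B is secreted, and class C carries a carbohydrate-binding module besides the catalytic part. BGLU proteins are family 1 beta-glucosidases, most of which release sugar from small molecules such as monolignol glucosides, coumarins, flavonols, hormone conjugates or glucosinolates and do not cut wall polymers. Class A of GH9 was not represented among the annotated probes.

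Each value below is a log2 ratio of the line over wild type, so that 0 is equal level, 1 is a doubling in the line and 0.58 is 1.5-fold. The 2 arrays of replicate 1 were averaged before any mean, and errors after ± are the SD over the 3 replicates of an age. Where 4 values of a gene are given, they stand for replicate 1 with the line in Cy3, replicate 1 with the line in Cy5, replicate 2 and replicate 3. A gene passed at an adjusted p under 0.05 by limma, adjusted over all 37479 features (genes and unnamed probes), and a fold over 1.5. The values are ratios from whole stems, in which more cells of a type and more transcript per cell cannot be told apart.

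SND2 itself checked the direction of the ratio. Its probe had the highest value of all probes on each 8-week array, from 5.23 to 7.60, and lay between 2.75 and 3.37 at 4 weeks, within the top 4 probes of each array. Median ratios of the arrays lay between -0.11 and 0.03 at 8 weeks and between -0.07 and 0.06 at 4 weeks, and 1 array stood apart at 8 weeks, the Cy5-labelled line of replicate 1, where the SD over probes was 1.01 against 0.31 to 0.35 for the other 3. Over all probes, which are not independent, the arrays of an age correlated only weakly, with Pearson's r between -0.11 and 0.28 at 8 weeks and between -0.22 and 0.13 at 4 weeks, and the pairs with the line in the same dye were the higher ones.

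At 8 weeks the families took different places without any member passing the test. The GH9 genes had a median log2 ratio of 0.20, the TBL genes of 0.00 and the BGLU genes of -0.18, beside a median of -0.04 over all features and of -0.01 over the annotated genes. The ratio was above 0 for 5 of 8 GH9 genes, 7 of 14 TBL genes and 1 of 11 BGLU genes, that one being BGLU33. It was above 0 for 37.9% of all features and 47.4% of the annotated genes. No member passed, the smallest adjusted p among them being 0.986 (limma). Neither did any other feature, so the background was 0% of features called, with a smallest adjusted p of 0.44. SND2 itself, whose mean of 6.69 was the highest of all features, did not pass either. A failure to pass therefore does not show that a member was unchanged. The order of the medians is thus a description of these genes, with no test of the difference between families.

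**Figure D1:**
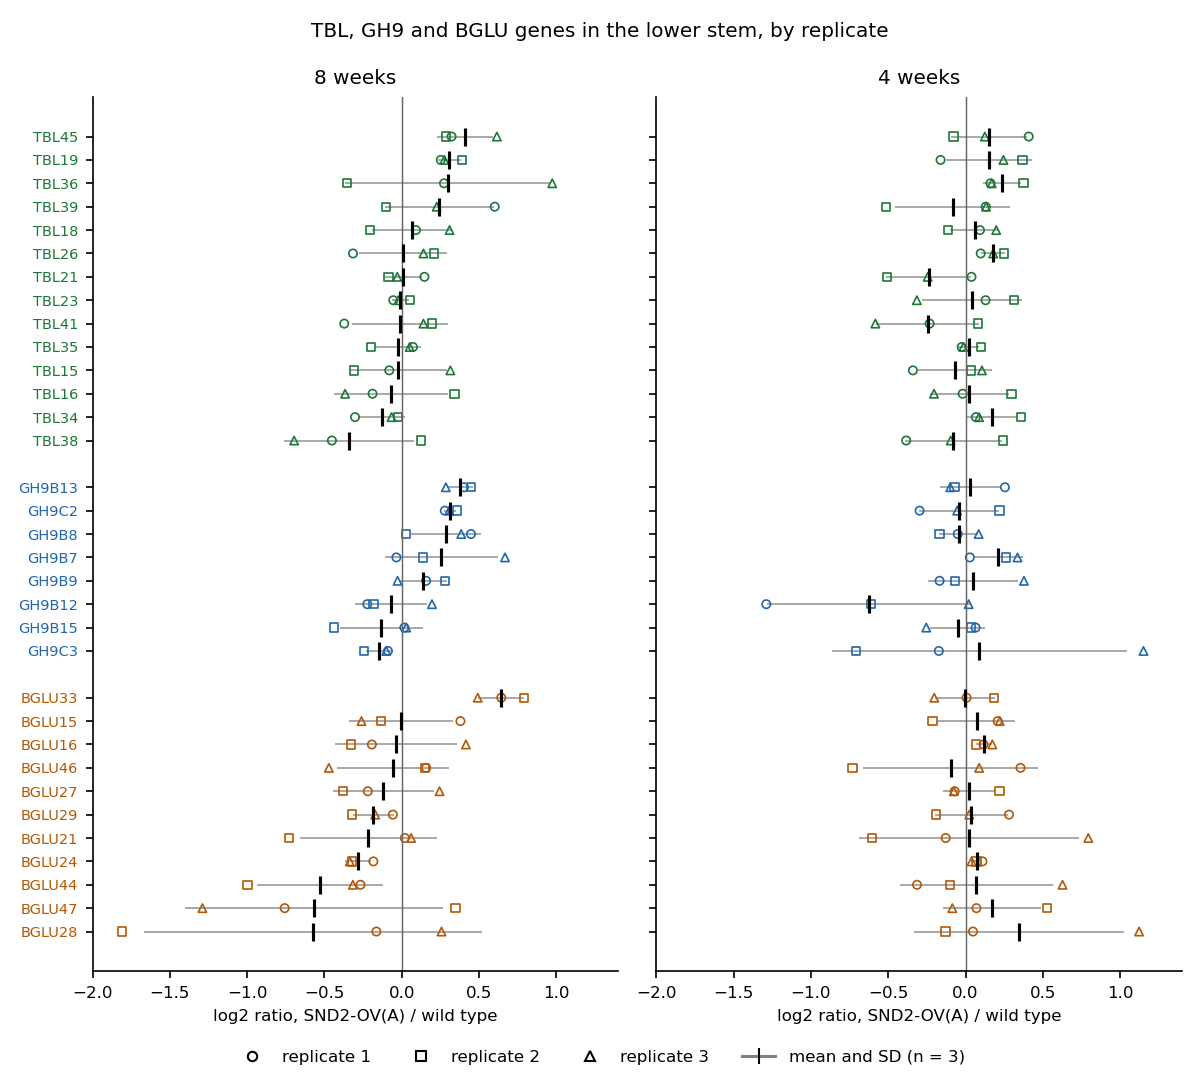
Log2 ratio of SND2-OV(A) over wild type (x axis) for the 33 genes (y axis) at 8 weeks (left) and 4 weeks (right). Open symbols are the 3 replicates, with the dye-swapped arrays of replicate 1 averaged, and black ticks with grey lines are the mean and SD. At 8 weeks BGLU33 lies at 0.64 while the means of the other 10 BGLU genes lie at or below 0. Replicate 2 carries the low mean of BGLU28, while BGLU47 is low in replicates 1 and 3 and above 0 in replicate 2.

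The BGLU median was below 0 in each replicate, but the number of BGLU means below 0 depended on replicate 2. The replicates 1, 2 and 3 had BGLU medians of -0.16, -0.32 and -0.17, and replicate 2 held the lowest of the 3 values for 6 of the 11 genes. Without replicate 2 only 5 of the 11 means were below 0 and the median was 0.01, and from the arrays with the line in Cy5 alone it was -0.01 with 6 genes below 0. The GH9 median stayed above 0 in each replicate, at 0.09, 0.08 and 0.24, and 5 to 7 of its 8 genes lay above 0 under each processing tried. On single arrays the GH9 median was -0.07, 0.18, 0.08 and 0.24 and the BGLU median -0.22, -0.03, -0.32 and -0.17, so that GH9 lay above BGLU on 4 of 4 arrays. The corresponding medians of all features were -0.11, 0.03, -0.07 and 0.00, and those of the annotated genes -0.03, 0.01, -0.02 and 0.01. The GH9 median was above that of the annotated genes on 3 of 4 arrays, replicate 1 with Cy3 being the exception, and the BGLU median was below it on 4 of 4.

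Counts of genes with the same sign in every replicate set the members against the background. At 8 weeks 6 of the 33 genes lay above 0 in all 3 replicates, namely TBL19, TBL45, GH9B8, GH9B13, GH9C2 and BGLU33, against 7.73% of all features and 761 of the 7234 annotated genes. These 6 genes lay above 0 on all 4 arrays too, against 4.38% of features. Below 0 in all 3 replicates were 5 genes, TBL34, GH9C3, BGLU24, BGLU29 and BGLU44, against 18.4% of all features and 950 of the 7234 annotated genes, so these 5 are no more than a description. BGLU24 and BGLU44 alone were below 0 on all 4 arrays, against 8.64% of features. At an unadjusted p under 0.05, 5 genes were higher (TBL19, TBL45, GH9B13, GH9C2 and BGLU33) against 1.32% of features, and 2 were lower (BGLU24 and BGLU44) against 2.19%. Only BGLU33 exceeded 1.5-fold, with one sign in its replicates, which 0.277% of features did in the upward direction.

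Among the TBL genes, TBL45 (AT2G30010) had the highest mean at 8 weeks. Its log2 ratio was 0.41, 0.23, 0.29 and 0.62 on the 4 arrays, which gave 0.41 ± 0.18 (SD, n = 3), 1.33-fold, with a 95% interval from 0.12 to 0.69. Every array was above 0 and replicate 3 was the highest. TBL19 (AT5G15900) gave the closest set of values of any TBL gene above 0, with 0.25, 0.26, 0.39 and 0.28 and a mean of 0.31 ± 0.07. The next gene on the chromosome is TBL21, with no gene between them, and its mean was 0.01 ± 0.12 with arrays on both sides of 0, so that these neighbours did not have the same ratio in the means, although their intervals, 0.07 to 0.54 and -0.24 to 0.26, overlapped.

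The lowest TBL gene was TBL38 (AT1G29050). It had -0.35, -0.56, 0.12 and -0.70, with replicate 2 above 0 and the other arrays below, and a mean of -0.34 ± 0.42. TBL36 had the widest spread of the family, with 0.36, 0.19, -0.35 and 0.97, and its mean of 0.30 was smaller than its SD of 0.66. TBL39 was at 0.60 on both arrays of replicate 1, and at -0.10 and 0.23 in the following replicates 2 and 3. In both genes replicate 2 alone was negative.

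The 4 measured TBL genes known to act on xylan or mannan had means close to 0. TBL genes without an annotated probe are not covered by this statement. TBL34 (AT2G38320) and TBL35 (AT5G01620), which acetylate xylan, had means of -0.13 ± 0.15 and -0.02 ± 0.15 at 8 weeks, with 95% intervals from -0.40 to 0.14 and from -0.29 to 0.24. TBL35 was the only member with 2 probes, whose means were -0.03 ± 0.12 and -0.02 ± 0.19 at 8 weeks and 0.07 ± 0.20 and -0.03 ± 0.08 at 4 weeks, so its probes differed by less than their spread. TBL23 (AT4G11090) and TBL26 (AT4G01080), which acetylate mannan, had means of -0.01 ± 0.05 and 0.01 ± 0.28. The intervals of these 4 genes leave room for a shift of up to about 0.40 in either direction, which is less than 1.5-fold. The remaining TBL genes at 8 weeks (TBL15, TBL16, TBL18 and TBL41) had means between -0.07 and 0.07 with SDs from 0.26 to 0.37.

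In the GH9 family the 2 genes with the highest means were also among the least variable. GH9B13 (AT4G02290), a secreted class B enzyme, had 0.51, 0.29, 0.45 and 0.29, a mean of 0.38 ± 0.08, with a 95% interval from 0.14 to 0.61. GH9C2 (AT1G64390), a class C enzyme with a carbohydrate-binding module and a known influence on cellulose crystallinity, had 0.41, 0.14, 0.36 and 0.31, which gave 0.31 ± 0.04. The 4 arrays of both genes were above 0, with the array of the line in Cy3 higher in replicate 1. GH9B8 (AT2G32990) came next with 0.38, 0.51, 0.03 and 0.38, where replicate 2 was close to 0, and a mean of 0.29 ± 0.23. Unadjusted p-values of limma were 0.00992 for GH9B13, 0.0163 for GH9C2 and 0.0682 for GH9B8, and none remained after adjustment.

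The other GH9 genes were split. GH9B7 had a mean of 0.26 ± 0.37, set by 0.67 in replicate 3 while its other arrays lay between -0.08 and 0.14, and GH9B9 had 0.14 ± 0.15. GH9C3 (AT4G11050), the other class C gene, was the lowest of the family with -0.21, 0.03, -0.25 and -0.10, a mean of -0.15 ± 0.09, so the intervals of the class C genes GH9C2 (0.09 to 0.54) and GH9C3 (-0.38 to 0.09) barely met. GH9B15 and GH9B12 had means of -0.13 ± 0.27 and -0.07 ± 0.23. GH9B9 and GH9B12 lie with 2 genes between them.

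**Figure D2:**
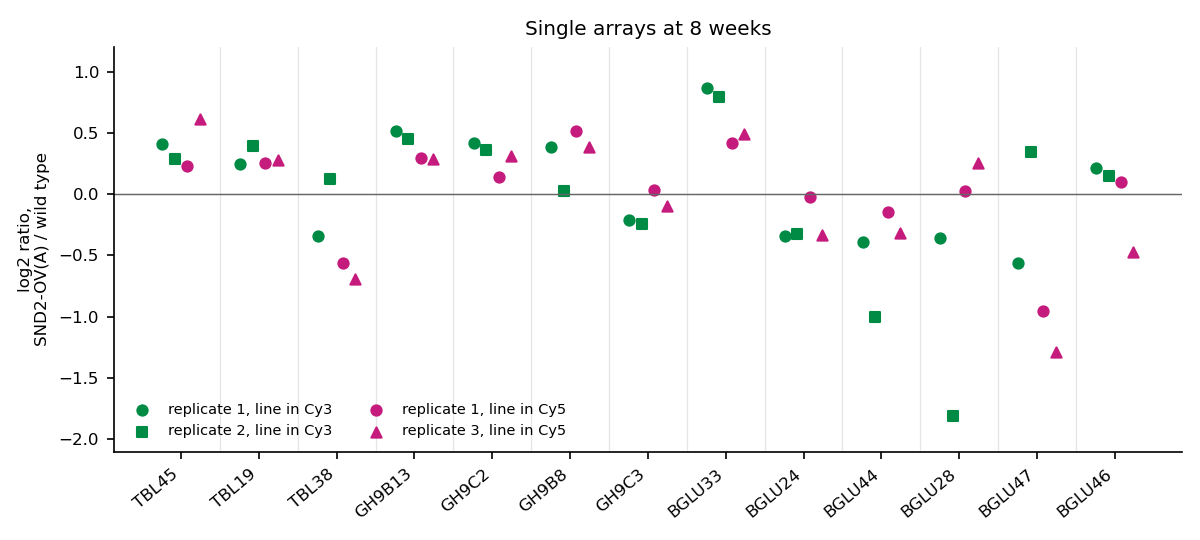
Log2 ratio on each of the 4 arrays at 8 weeks (y axis) for 13 genes (x axis). Green marks arrays with the line in Cy3 and magenta those with the line in Cy5, and the shape gives the replicate. BGLU33, TBL45, TBL19, GH9B13, GH9C2 and GH9B8 are above 0 on 4 of 4 arrays, while the low mean of BGLU28 comes from replicate 2 at -1.81.

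BGLU33 stood apart from its family. This gene (AT2G32860) encodes a vacuolar enzyme that releases abscisic acid from its glucose ester. On the 4 arrays its ratio was 0.87, 0.42, 0.79 and 0.49, all above 0, with the 2 arrays of the line in Cy3 higher than those of the line in Cy5. The mean was 0.64 ± 0.15 (SD, n = 3), 1.56-fold, with a 95% interval from 0.38 to 0.91. It had the highest mean of the 33 genes, an unadjusted p of 0.00196 in limma, and an adjusted p of 0.986.

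BGLU44 and BGLU24 were the BGLU genes below 0 on every array. BGLU44 (AT3G18080), which prefers oligomers of mannose to those of glucose, had -0.39, -0.14, -0.998 and -0.32, a mean of -0.53 ± 0.41, with replicate 2 far below the rest. Without replicate 2 the mean of BGLU44 was -0.29. BGLU24 (AT5G28510) belongs to the clade of PYK10, the main glucosidase of ER bodies, and had -0.34, -0.03, -0.32 and -0.34. Its mean of -0.28 ± 0.08 carried a 95% interval from -0.52 to -0.04, and the array near 0 was the wide one of replicate 1. Another gene of that clade, BGLU21, which acts on the coumarin glucoside scopolin in roots, had -0.22, 0.26, -0.73 and 0.06, on both sides of 0, and a mean of -0.22 ± 0.44.

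The lowest means of all 33 genes were those of BGLU28 and BGLU47, and both rested on part of the replicates. BGLU28 (AT2G44460), known for breakdown of glucosinolates under sulfur shortage, had -0.36, 0.03, -1.81 and 0.26. Its mean of -0.57 ± 1.09 became 0.05 without replicate 2. BGLU47 (AT4G21760), of the clade of monolignol glucosidases, had -0.56, -0.95, 0.35 and -1.29, a mean of -0.57 ± 0.84, with replicate 2 alone above 0. Without replicate 2 the mean of BGLU47 was -1.02. BGLU46 (AT1G61820), which cleaves monolignol glucosides, had 0.21, 0.10, 0.15 and -0.47, so that replicate 3 alone was negative, and a mean of -0.05 ± 0.36. These clade-mates had opposite signs on both arrays of replicate 1 and the same sign in replicates 2 and 3.

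BGLU15, BGLU28 and BGLU29 lie next to each other, with no gene between them, and their means were -0.00 ± 0.34, -0.57 ± 1.09 and -0.18 ± 0.13 at 8 weeks. BGLU15, which acts on flavonol glycosides, was at 0.38 in replicate 1 and at -0.13 and -0.26 in the others, whereas BGLU29 lay below 0 in every replicate. BGLU27 and BGLU16 are likewise adjacent, with means of -0.12 ± 0.32 and -0.04 ± 0.40, and in both of them replicate 3 alone was above 0. Probe sequences were not used here, so whether a probe also reads a close copy of its gene is not known.

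Spread differed between the families. The median SD over replicates at 8 weeks was 0.19 for GH9, 0.27 for TBL and 0.36 for BGLU genes, beside 0.18 for all features. At 4 weeks these medians were 0.23, 0.25 and 0.25, beside 0.23. The dye-swapped arrays of replicate 1 had the same sign for 21 of the 33 genes at 8 weeks and for 17 at 4 weeks. No share over all features is given beside these counts, so they are not read as a trait of these genes. Over all probes, pairs of arrays with opposite dyes, which include these swaps, had Pearson's r of at most 0.09 at 8 weeks and 0.06 at 4 weeks.

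**Figure D3:**
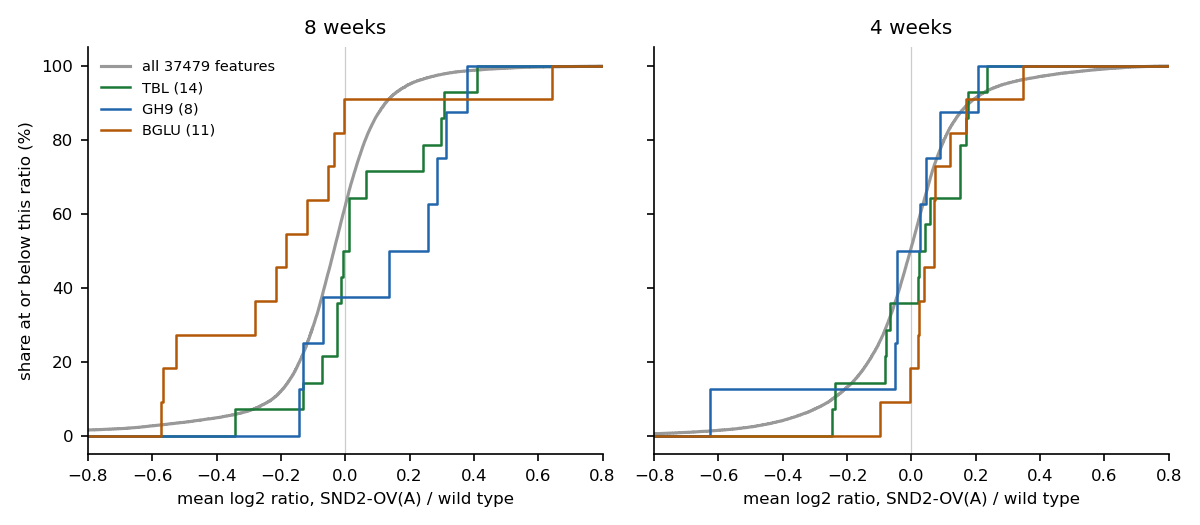
Share of genes or features in percent (y axis) whose mean log2 ratio is at or below a given value (x axis) at 8 weeks (left) and 4 weeks (right). Coloured steps are the 14 TBL, 8 GH9 and 11 BGLU genes, and the grey curve is all 37479 features, of which 0.8 on either side is shown. At 8 weeks the BGLU steps run left of the grey curve up to 0 and the GH9 steps right of it above 0. At 4 weeks the GH9 and BGLU medians lie closer to that of all features. Even so, 81.8% of the BGLU genes then lie above 0, against 49.0% of features.

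At 4 weeks the families were not separated as at 8 weeks. Medians were 0.03 for TBL, -0.01 for GH9 and 0.07 for BGLU genes, beside 0.00 for all features. Against 49.0% of all features, 9 of 14, 4 of 8 and 9 of 11 genes were above 0. None passed, and neither did SND2, against a background of 0% of features. At an unadjusted p under 0.05 in limma were 0 of the 33 genes, against 0.987% of features. Above 0 in all 3 replicates were 6 genes, TBL26, TBL34, TBL36, GH9B7, BGLU16 and BGLU24, against 8.88% of features, and below 0 in all 3 were 0 genes, against 7.98%. On all 4 arrays TBL36 and BGLU16 were above 0, against 4.15%, and 0 genes were below, against 3.75%. No member was both over 1.5-fold and of one sign in its replicates, which 0.899% of features were.

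The TBL genes at 4 weeks ran from TBL41 to TBL36. TBL36 (AT3G54260) had 0.22, 0.10, 0.37 and 0.17, all above 0, and a mean of 0.23 ± 0.12 that was less variable than its mean at 8 weeks. TBL41 (AT3G14850) was lowest with -0.14, -0.33, 0.08 and -0.58, a mean of -0.25 ± 0.33, with replicate 2 alone above 0. The xylan gene TBL34 had 0.21, -0.08, 0.36 and 0.09 with a mean of 0.17 ± 0.16, and the mannan gene TBL26 had 0.18 ± 0.08. TBL45 and TBL19, the highest at 8 weeks, both had a mean of 0.15 at 4 weeks, with SDs of 0.24 and 0.28, and each had 1 replicate below 0.

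GH9B12 (AT2G44570) had the largest ratio of any member at 4 weeks, and a single array gave most of it. Its values were -2.47, -0.11, -0.61 and 0.02, so that the dye-swapped arrays of the same RNA differed by 2.36, and the mean was -0.63 ± 0.65, a 1.54-fold lower level. With replicate 1 taken from its other array, the line in Cy5, the 3 replicates would lie at -0.11, -0.61 and 0.02. GH9B7 (AT1G75680) was highest of the family with 0.16, -0.11, 0.26 and 0.34, one array of replicate 1 being negative, and a mean of 0.21 ± 0.16. GH9C2 had -0.39, -0.20, 0.22 and -0.05, a mean of -0.04 ± 0.26, and GH9B13 had 0.03 ± 0.20, so the leading genes of 8 weeks lay on both sides of 0. GH9C3 had the widest spread at 4 weeks, 0.09 ± 0.96, with -0.71 in replicate 2 and 1.15 in replicate 3.

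Of the BGLU genes at 4 weeks, BGLU28 had the highest mean and BGLU46 the lowest. BGLU28 had -0.13, 0.23, -0.13 and 1.12, a mean of 0.35 ± 0.68, where replicate 3 gave nearly all of the mean. BGLU46 had 0.64, 0.07, -0.73 and 0.09, a mean of -0.10 ± 0.57, with replicate 2 alone negative. BGLU47 had 0.14, -0.00, 0.53 and -0.09, with arrays on both sides of 0, and a mean of 0.17 ± 0.32. BGLU33 had 0.02, -0.01, 0.18 and -0.20, a mean of -0.00 ± 0.19, with a 95% interval from -0.35 to 0.34. BGLU16 and BGLU24 had the smallest SDs of them, with means of 0.12 ± 0.05 and 0.07 ± 0.04. On single arrays BGLU24 had -0.03, 0.25, 0.07 and 0.04, so that 1 array of replicate 1 was below 0.

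The difference between the ages was fitted on the 6 ratios of both experiments. Its median was 0.21 for GH9, 0.02 for TBL and -0.22 for BGLU genes (8 minus 4 weeks), beside -0.02 for all features. The mean was higher at 8 weeks for 6 of 8 GH9, 8 of 14 TBL and 2 of 11 BGLU genes, against 45.7% of all features. No member passed the test of the difference, against a background of 0% of features, and 2 of the 33 had an unadjusted p under 0.05, BGLU33 and BGLU24, against 1.61% of features. For BGLU33 the difference was 0.65, with a 95% interval from 0.26 to 1.04 and an unadjusted p of 0.00614 in limma. For BGLU24 it was -0.35, from -0.66 to -0.05, with an unadjusted p of 0.028 in limma. With the arrays of replicate 1 averaged, its ratio was positive in every replicate at 4 weeks and negative in every replicate at 8 weeks. At 4 weeks 1 of those averaged arrays was below 0, at -0.03. The adjusted p of both was 1.00, as was the smallest over all features.

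Apart from that of BGLU33, the largest age differences were imprecise. BGLU28 differed by -0.92 and BGLU47 by -0.74, with intervals from -2.35 to 0.51 and from -1.75 to 0.28. BGLU44 differed by -0.60 and GH9B12 by 0.56, with intervals from -1.35 to 0.16 and from -0.25 to 1.36. Smaller differences were found for the leading genes of 8 weeks. GH9B13 and GH9C2 differed by 0.35 and 0.36, with intervals from -0.02 to 0.72 and from -0.04 to 0.76, and GH9B8 by 0.33, from -0.07 to 0.73. For TBL45 and TBL19 the differences were 0.26 and 0.16, with intervals that reached -0.18 and -0.27. The intervals of all the genes named in this paragraph, BGLU33 aside, held 0. Between the ages the sign of the mean was the same for 14 of the 33 genes, and across the genes, which are not replicates, Pearson's r of the means was -0.08 (n = 33), beside 0.06 over all features.

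**Figure D4:**
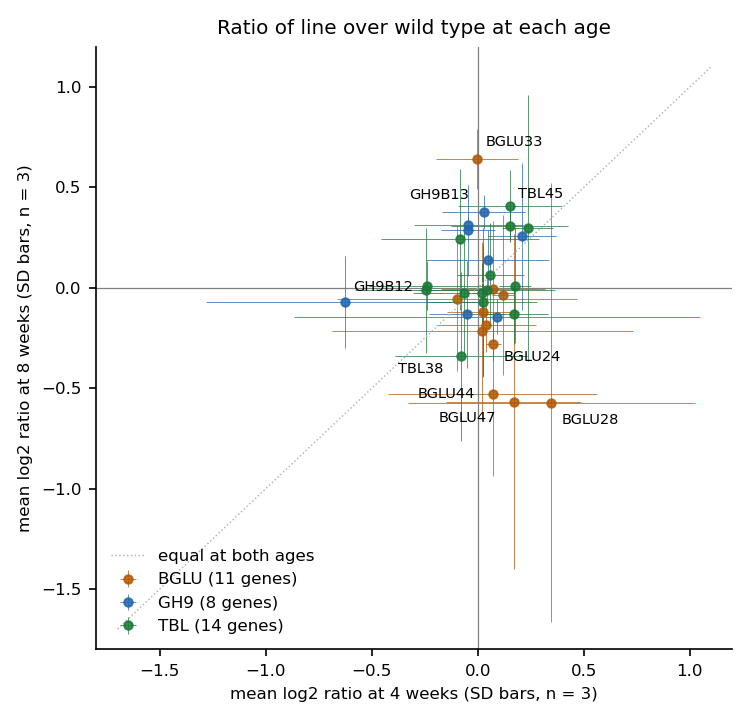
Mean log2 ratio of SND2-OV(A) over wild type at 4 weeks (x axis) and at 8 weeks (y axis) for the 33 genes, with SD bars over 3 replicates and a dotted line of equal ratios. Colours give the family. BGLU33 lies near 0 at 4 weeks and at 0.64 at 8 weeks, and BGLU28, BGLU44 and BGLU47 lie above 0 at 4 weeks and below -0.5 at 8 weeks with long bars.

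Other genes of the same polymers and substrates were few among the annotated probes. Of the genes listed for wall O-acetylation outside TBL, 1 of 7 had an annotated probe, of xylan synthesis 2 of 20, of mannan 1 of 6, of myrosinase and ER bodies 2 of 25, and of monolignol glucosides and lignin 2 of 22. The lists for secondary wall cellulose, xyloglucan and other wall glycosidases had none, and 0 of the measured genes passed in either direction at either age. The xylan synthesis genes IRX15 and IRX15-L had means of 0.64 ± 0.47 and 0.28 ± 0.27 at 8 weeks, both above 0 in each replicate, with replicate 2 the lowest of each at 0.14 and 0.00. At 4 weeks their means were 0.00 and 0.13. The mannan synthase gene CSLA03 had -0.83 ± 1.18 at 8 weeks, from -2.19 in replicate 1 to -0.14 in replicate 2.

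ER body genes were read beside BGLU21 and BGLU24. NAI2, needed to form ER bodies, had a mean of -0.54 ± 0.57 at 8 weeks, and the jacalin-associated lipase gene GLL23 (AT1G54010) had -0.48 ± 0.56. In both of them replicate 1 was above 0 and the other replicates were below, a pattern that BGLU21 did not have. On the side of lignin, UGT72E3, which makes the monolignol glucosides that BGLU46 cleaves, had -0.09 ± 0.06, and HCT had 0.04 ± 0.29. TBR, the founding gene of the TBL family, had 0.05 ± 0.38.

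Markers of the cell types in a stem were also few. None of the markers listed for fibre and xylem, epidermis, green cortex and cambium had an annotated probe, so no ratio is given for them. Ratios of line over wild type hold no signal levels, so the tissue label could not be checked with markers in any case. The phloem gene SWEET11 had 0.44 ± 0.65 at 8 weeks, with 0.66 and 0.96 in replicates 1 and 2 and -0.28 in replicate 3. The guard cell regulator FAMA had 0.05 ± 0.29. A part of cell type make-up in the ratios of the 3 families was not tested.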

How the data were processed

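Values were the log2 ratios per probe and array that the authors deposited, after extraction with GenePix Pro and normalization in R with limma. Background correction and the normalization method are not given in the sources used here, and the ratios hold no signal levels, so that the number of arrays limits the precision. Dyes, ages and replicates came from the labels, and every array read line over wild type. No value was missing for the 37685 probes on the 8 arrays, no filter was applied and 0 columns of other samples were present.

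Probes were named by the platform annotation (7440 probes, 7234 genes, 0 probes with several genes), updated by gene identifier to RefSeq symbols. Probes of a gene were averaged, and 30245 unnamed probes, some of which may read the same genes, stayed single, which gives 37479 features. The SND2 probe was found through the study's own probe list. Gene order came from RefSeq (TAIR10.1).

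At each age limma 3.58.1 (R 4.3.3; lmFit and eBayes) was fitted to the 3 replicate ratios with an intercept only, with Benjamini-Hochberg adjustment over all features, and the ages were compared in 1 fit of 6 ratios. Replicates were separate plant pools according to the methods. The fit was also run on simulated data with independent replicates and no dye effect, unlike these arrays, which correlated by dye. Its outcome is not given here and is no support for the results above. Figures were made with Python 3.11.15 and matplotlib 3.10.9.

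Values on every array were given for members over 1.5-fold with one sign in the replicates, members with an unadjusted p under 0.05, the highest and lowest mean of each family at each age, and GH9C2, BGLU46 and BGLU47 by role. All others were named after their values were seen. Members and gene lists were chosen with earlier results of these data known. Alternatives were the handling of replicate 1, a dye term, single dye orientations, centring, scaling, quantile normalization, single probes, a robust prior, both ages in 1 fit, the thresholds, a replicate block and each replicate left out.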

Additional observations from a re-analysis of the deposited data

Results flagged for a closer look

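The ratios of 2 genes lay on opposite sides of 0 in every replicate of the 2 ages. BGLU24 was above 0 in each replicate at 4 weeks and below 0 in each at 8 weeks, with a difference of -0.35 (limma, unadjusted p of 0.028, adjusted p of 1.00). TBL34 did the same with a difference of -0.30 and a 95% interval from -0.67 to 0.07. Both patterns rest on averaging the dye-swapped arrays of replicate 1. For TBL34 these arrays were -0.65 and 0.05 at 8 weeks and 0.21 and -0.08 at 4 weeks, with opposite signs at both ages. For BGLU24 they were -0.03 and 0.25 at 4 weeks. Of all 37479 features, 1.89% had such opposite signs in either direction, and of the 33 genes 6.06%. No explanation of either was tested.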

How the results depend on the processing

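Of 492 values recomputed under other settings, 463 kept their direction and their side of the threshold, or moved by less than the spread between replicates. Of 22 ratios and differences of named genes, 16 kept their sign in all settings, among them those of BGLU33, GH9B13, GH9C2, TBL19, TBL45, BGLU24 and BGLU44 at 8 weeks, and the ratio of BGLU33 then ranged from 0.45 to 0.83. The count of features passing at 8 weeks was 0 as reported, 1 after quantile normalization, 2 with both ages in 1 fit, 750 by fold and sign without a p, and from 0 to 3 with a replicate left out. At 4 weeks it was 2 with both ages in 1 fit and 337 by fold and sign. With a replicate block the differences between the ages again gave 0 features passing. The ratios at a single age hold no pairs and were not fitted with it. Same-numbered replicates of the 2 ages correlated at r = -0.02, 0.12 and 0.16 in their deviations. The highest r with another number was 0.05, 0.08 and -0.05, so replicates 2 and 3 correlated best with their own number and replicate 1 did not. Replicates 2 and 3 each had the line in the same dye at both ages, so these correlations cannot show a pairing of plants. No pairing was assumed.

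From the arrays with the line in Cy3 alone, the GH9 median was 0.0704 at 8 weeks, -0.10 at 4 weeks and 0.34 for the difference. There BGLU46 was at 0.18 at 8 weeks and BGLU28 at -0.13 at 4 weeks. With the line in Cy5 alone, the BGLU median at 8 weeks was -0.0142, the TBL median was -0.0290 at 4 weeks and 0.14 for the difference, and BGLU28 was at 0.14 at 8 weeks, BGLU46 at 0.0765 and BGLU47 at -0.0436 at 4 weeks. The 4-week ratio of BGLU46 was also reversed, to 0.00021, with replicate 1 from its Cy3 array and, to 0.017, with a dye term.

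With each replicate left out, the BGLU median ranged from -0.25 to 0.0125 at 8 weeks (the latter without replicate 2) and its age difference from -0.34 to -0.0604, and the TBL age difference from -0.0631 to 0.12. BGLU28 ranged from -0.99 to 0.0465 at 8 weeks and from -0.0412 to 0.58 at 4 weeks. BGLU46 ranged from -0.16 to 0.15 at 8 weeks and from -0.32 to 0.22 at 4 weeks, and at 4 weeks BGLU47 ranged from -0.0078 to 0.30 and GH9C2 from -0.18 to 0.0824. Centring the arrays put 11 in place of 7 of the 14 TBL genes above 0 at 8 weeks, a count chosen after seeing the data. No cause of these changes was tested. The alternative of adding family genes named only by the study's list was not run.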
